A study of Mus musculus with 12 samples.

Results

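The genes described here are 7 genes of the pigment cell, the melanocyte: Tyr, Tyrp1, Dct, Pmel, Mlana, Mitf and Sox10. They were found by symbol among the 16964 gene symbols of a 2-colour array of 37632 probes, with the older symbol Si accepted for Pmel, which gave 8 probes, 2 of them for Pmel. Expression had been measured in tail skin papillomas of 6 mice. All 6 mice carried a transgene for an active form of Sos, an activator of Ras, under the keratin 5 promoter of basal keratinocytes (SOS+). In the Fos-floxed group (mice 2, 3 and 5) loxP sites flanked Fos on both alleles and the gene was kept, and in the Fos-deficient group (mice 6, 8 and 9) it was removed from the epidermis on both. All mice had a mixed background of the strains 129/Ola, C57BL/6, CBA, LVA and B6C3F1. The sources used here do not give age, coat colour or the line that drove the deletion. Each papilloma RNA was hybridised on 2 arrays with exchanged dyes against a commercial RNA pooled from mouse cell lines, which gave 12 arrays, and the mouse was the replicate. The papilloma of a mouse is called a specimen and carries its number.

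Melanocytes arise from the neural crest and over most of the mouse body lie mainly in the hair follicle. They pass pigment granules, the melanosomes, to keratinocytes. Where melanocytes lay in these tail papillomas was not examined here. Sox10 and Mitf are transcription factors that set up and maintain the cell, and Mitf switches on the genes of the pigment enzymes. Tyr, Tyrp1 and Dct are related enzymes of melanin synthesis, while Pmel and Mlana encode proteins of the maturing melanosome.

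The values are log ratios of papilloma over reference RNA, taken here as base 2, so that a value of 1 stands for a doubling. Keratinocyte genes lay far above 0 in the Fos-floxed group, with mean log2 ratios of 5.34 for Krt14 and 5.40 for Krt10, so the direction papilloma over reference is likely but not stated. Between 55.3% and 70.4% of the probes had a value on an array, and why the other cells are empty is not stated in the sources used here. Fos lay at log2 ratios of -1.30, -0.56 and -1.56 in floxed papillomas 2, 3 and 5, compared with -4.01, -4.43 and -3.91 in deficient papillomas 6, 8 and 9. Fos was thus lower in every Fos-deficient specimen, as labelled, by a difference of -2.98 (SE 0.29, n = 3 per group, limma adjusted p = 0.203). The place of its probe relative to the deletion is not known here.

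The stretches upstream of the 3 pigment enzyme genes are shown because Mitf is known to act there, through a short element called the M-box, and because the ratios of these 3 genes, given below, differ in size. Each run is the 250 bases before the RefSeq start of the gene in GRCm38.p6, read along the gene's strand, and capitals mark the letters TCATGTG, the core of the M-box, or its reverse complement CACATGA. The runs were taken from chr4:80833963-80834212 for Tyrp1 (plus strand), chr7:87493513-87493762 for Tyr (minus strand) and chr14:118052247-118052496 for Dct (minus strand).
Tyrp1: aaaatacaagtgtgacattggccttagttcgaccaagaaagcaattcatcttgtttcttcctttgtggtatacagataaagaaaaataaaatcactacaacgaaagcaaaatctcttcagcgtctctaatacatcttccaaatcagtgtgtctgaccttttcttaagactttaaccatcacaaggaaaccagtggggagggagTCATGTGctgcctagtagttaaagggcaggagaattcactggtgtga
Tyr: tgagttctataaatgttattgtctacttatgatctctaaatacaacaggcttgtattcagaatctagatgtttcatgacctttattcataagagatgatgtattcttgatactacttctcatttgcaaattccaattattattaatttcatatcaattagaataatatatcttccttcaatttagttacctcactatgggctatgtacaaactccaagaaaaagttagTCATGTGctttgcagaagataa
Dct: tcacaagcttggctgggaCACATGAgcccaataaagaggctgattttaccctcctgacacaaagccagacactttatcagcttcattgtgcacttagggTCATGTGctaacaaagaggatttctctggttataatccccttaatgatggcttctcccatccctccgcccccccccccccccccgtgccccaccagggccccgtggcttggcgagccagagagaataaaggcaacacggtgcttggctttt
The core was found once in Tyrp1, from 47 to 41 bases before the start, and once in Tyr, from 22 to 16 bases before it. Dct held it at 151 to 145 bases before the start, and once more in the opposite orientation at 232 to 226 bases. Searched on both strands, the same letters occurred in 3.25% of all 32851 mouse promoter stretches of this length. None of the 3 starts listed for Mitf had them. A match describes the letters only, and no promoter of Pmel, Mlana or Sox10 was used here.

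Tyrp1, an enzyme of the later steps of melanin synthesis, was high in 2 of the 3 Fos-deficient papillomas. Its log2 ratio was 0.56, 0.42 and 0.80 in floxed papillomas 2, 3 and 5, compared with 1.90, 2.23 and 0.58 in deficient papillomas 6, 8 and 9. Specimens 2 and 9 had a value on 1 array each, in Cy3 and in Cy5. Specimens 6 and 8 stood apart from the other 4. By these specimen values specimen 9 lay within the Fos-floxed range, so the groups overlapped. In the 4 specimens with both dyes, Tyrp1 read lower in Cy5, with a mean gap of -0.34 (-0.73 to -0.11). The value of specimen 9 was in Cy5, where it lay above the 0.26 and 0.43 of Fos-floxed specimens 3 and 5. The means were 0.59 ± 0.19 (SD, n = 3) and 1.57 ± 0.87 (SD, n = 3). The difference of 0.98 (SE 0.44), or 1.97-fold, did not pass in limma (adjusted p = 0.440). With all 20 ways to assign the papillomas, a two-sided exact permutation test gave p = 0.2, where 0.1 is the lowest such a design can reach. In a bulk sample, more melanocytes and more RNA per melanocyte cannot be told apart.

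The 2 arrays of a specimen gave Tyrp1 the same order. In Cy5 the log2 ratios were 1.84 and 2.14 in specimens 6 and 8, against 0.26, 0.43 and 0.58 in specimens 3, 5 and 9. In Cy3 they were 1.96 and 2.32 in specimens 6 and 8, against 0.56, 0.58 and 1.16 in specimens 2, 3 and 5. In both orientations specimens 6 and 8 were thus the highest of those with a value. Without Fos-deficient specimen 9 the difference was 1.47 (SE 0.17, limma adjusted p = 0.102), and without specimen 8 it was 0.65 (SE 0.41, limma adjusted p = 0.646). Where both arrays of a specimen had to hold a value, specimens 2 and 9 dropped out and the difference was 1.46 (SE 0.21, limma adjusted p = 0.212), and over the 15 alternatives run for it the limma adjusted p lay between 0.102 and 0.787. The size of the Tyrp1 difference therefore depended on specimens 8 and 9, and no choice made it pass, where most choices called 0 features of any kind.

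Dct, the dopachrome tautomerase, had a value on 5 of 12 arrays. In Fos-deficient specimen 6 the log2 ratio was 2.21 in Cy5 and 1.66 in Cy3, and in specimen 8 it was 1.29 and 1.13. Among the Fos-floxed papillomas a single array of specimen 5, in Cy3, held a value of 0.83, and specimens 2, 3 and 9 had none. The measured values thus came mainly from specimens 6 and 8 again, here with specimen 6 as the higher. With 1 Fos-floxed specimen measured, Dct was not tested, and no fold is given.

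Tyr, the rate-limiting enzyme of melanin synthesis, had a value on all 12 arrays and hardly varied. Its log2 ratio was 0.24, 0.23 and 0.31 in floxed papillomas 2, 3 and 5, compared with 0.38, 0.38 and 0.26 in deficient papillomas 6, 8 and 9. The groups overlapped, and the difference of 0.08 (SE 0.08) did not pass in limma (adjusted p = 0.701). The Tyr values were also those of many other spots. Of 17875 other probes with a value on every array, 197 (1.10%) followed Tyr across the 12 arrays within a root mean square distance of 0.1 on the log2 scale, and none came that close to Sox10 or to the fuller probe of Pmel. Spot brightness was not analysed here, so it is not known whether the Tyr spot stood above background.

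**Figure D1:**
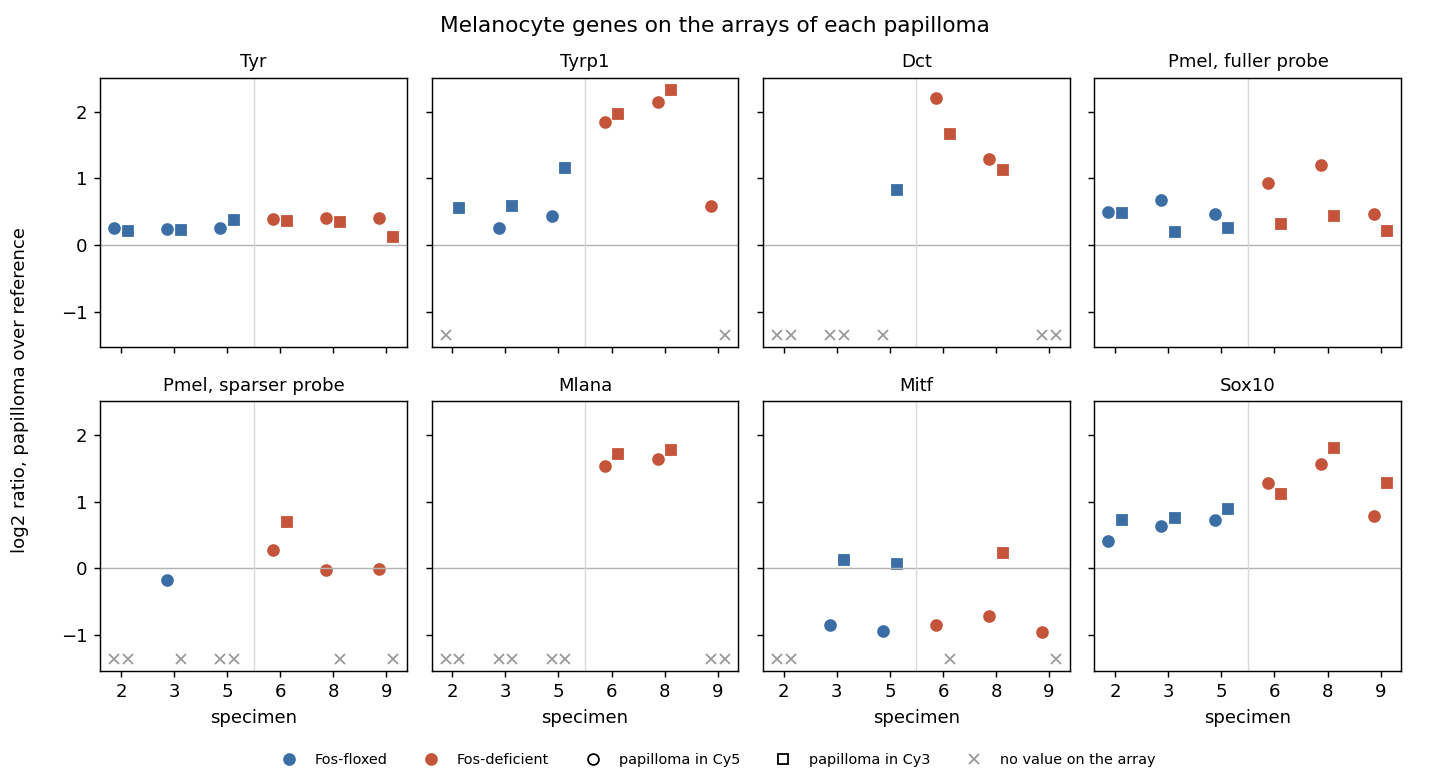
Log2 ratios of papilloma over reference RNA (vertical axis) for each melanocyte probe on the 2 arrays of each specimen (horizontal axis), circles with the papilloma in Cy5, squares in Cy3, crosses where an array had no value. Tyrp1, Dct and Mlana are highest in Fos-deficient specimens 6 and 8, where Tyrp1 reaches 1.90 and 2.23 as specimen means, and Tyr stays between 0.12 and 0.41 on all arrays.

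Olfactory receptor genes, which belong to the nasal epithelium, were used to describe what ratios spots for genes of another tissue take on, a choice made after the values were seen. Of 993 such probes, 170 had a value on every array, and their median log2 ratio lay between 0.28 and 0.40 on the 6 Cy5 arrays and between -0.04 and 0.10 on the 6 Cy3 arrays. In Cy5 the median was 0.34, 0.28 and 0.32 in floxed specimens 2, 3 and 5. It was 0.40, 0.40 and 0.38 in deficient specimens 6, 8 and 9. In Cy3 the medians were 0.06, -0.02 and 0.08, compared with 0.10, 0.08 and -0.04. In Cy5 these spots thus also read slightly higher in every Fos-deficient specimen. Whether the small difference of Tyr goes beyond this shift was not tested. Tyr lay between the 5th and 95th percentile of these probes on 11 of its 12 arrays. Sox10 lay above the 95th percentile on 11 of 12 arrays, Tyrp1 on 7 of 10 and the fuller probe of Pmel on 5 of 12. Mitf lay below the 5th percentile on 5 of its 8 arrays and above the 95th on 0, and the sparser Pmel probe lay above on 1 and below on 1 of 5. Dct and Mlana, with 5 and 4 arrays, were above on each of them, but they have values almost only in specimens 6 and 8, while the olfactory probes were required on all arrays. A positive ratio alone therefore did not set a melanocyte gene apart from genes of another tissue.

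**Figure D2:**
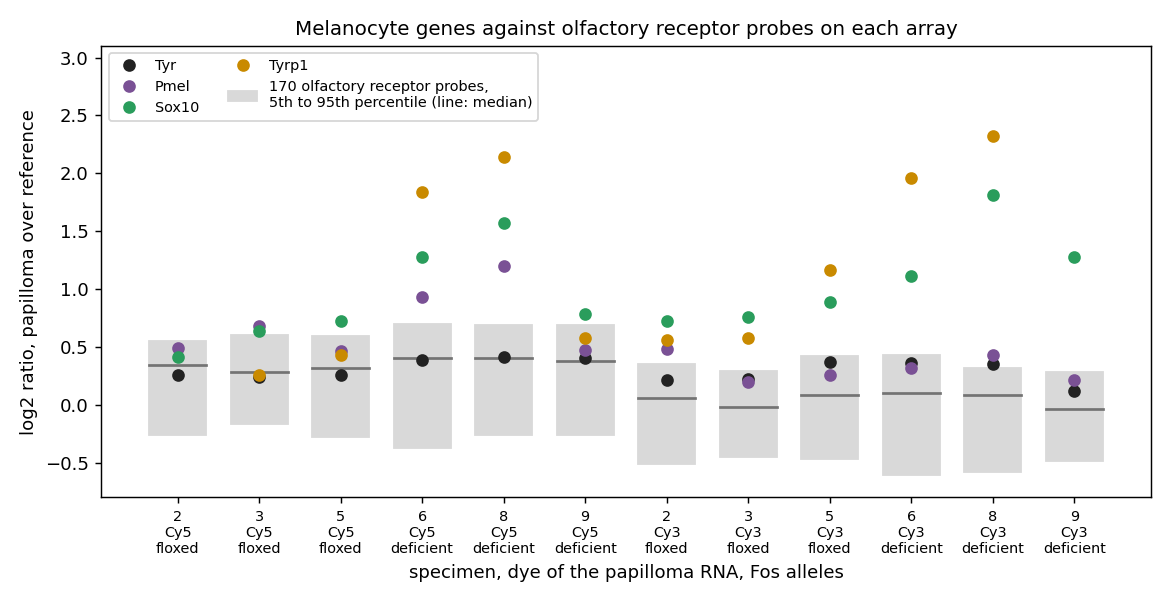
Log2 ratios of Tyr, Tyrp1, Sox10 and the fuller Pmel probe (points) on each of the 12 arrays, with the 5th to 95th percentile of 170 olfactory receptor probes as a grey box and their median as a line. Sox10 lies above the box on 11 arrays and Tyr inside it on 11, and Tyrp1 is far above it in specimens 6 and 8.

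Pmel encodes the protein whose fibrils form the scaffold of the melanosome. Its fuller probe gave log2 ratios of 0.48, 0.44 and 0.36 in floxed papillomas 2, 3 and 5, compared with 0.63, 0.81 and 0.34 in deficient papillomas 6, 8 and 9. Specimens 6 and 8 were the highest here as well, and specimen 9 was the lowest of all 6. The means were 0.43 ± 0.06 (SD, n = 3) and 0.59 ± 0.24 (SD, n = 3), and the difference of 0.16 (SE 0.14) did not pass in limma (adjusted p = 0.661). The dyes disagreed on it. With the papilloma in Cy5 the probe read 0.93 in specimen 6 and 1.20 in specimen 8 against 0.46 to 0.68 in the other specimens, while in Cy3 the 6 values lay between 0.20 and 0.48. The difference was 0.33 (SE 0.20) in Cy5 and 0.00 (SE 0.12) in Cy3. The sparser probe had a value on 5 arrays, at 0.28 and 0.69 in specimen 6, -0.02 in specimen 8, -0.01 in specimen 9 and -0.18 in Fos-floxed specimen 3, and was not tested. The high readings of the fuller Pmel probe in specimens 6 and 8 thus appeared in 1 dye orientation.

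Mlana, a melanosome protein used as a melanocyte marker, had values in specimens 6 and 8 alone. The log2 ratios were 1.53 in Cy5 and 1.71 in Cy3 for specimen 6, and 1.64 and 1.78 for specimen 8. All 6 Fos-floxed arrays and both arrays of Fos-deficient specimen 9 were empty, so Mlana was not tested and has no fold. The 4 arrays with a Mlana value were not the fullest ones, holding values for 55.3% to 69.2% of all probes against 57.9% to 70.4% on the other 8.

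Of 28586 probes with a value on any array, 7 had values on exactly those 4 arrays, Mlana included. The other named ones were Krt26, Krt39, Gprc5d, Fgl2 and Tlcd4, genes named here after their values were seen. Krt26, a keratin of the inner root sheath of the hair, read 1.92 and 1.77 in specimen 6 and 4.29 and 4.08 in specimen 8. Krt39, a hair keratin, read between 1.64 and 2.54, and Gprc5d, a receptor expressed in hair-forming cells, read 2.22 and 1.84 in specimen 6 and 4.83 and 4.03 in specimen 8. These probes were picked by the arrays that held their values, so sharing the pattern of Mlana is no separate result. How many probes other sets of 4 arrays would give was not counted. Krt26, Krt39, Gprc5d and Tlcd4 (1.77 and 1.78, then 2.80 and 3.25) were higher in specimen 8 than in specimen 6. Fgl2 was not (1.44 and 1.16, then 1.18 and 1.07), and Mlana itself was close in the pair.

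Sox10, the neural crest factor found in melanocytes and in Schwann cells, was the only one of the 4 genes with values in all 6 mice whose groups did not overlap, which 19.7% of all such features did in either direction. Its log2 ratio was 0.56, 0.70 and 0.81 in floxed papillomas 2, 3 and 5, compared with 1.19, 1.69 and 1.03 in deficient papillomas 6, 8 and 9. Specimen 8 was again the highest. Specimen 9 lay above all Fos-floxed specimens, which for Tyrp1 it did within Cy5 alone. The means were 0.69 ± 0.12 (SD, n = 3) and 1.30 ± 0.35 (SD, n = 3). The difference was 0.61 (SE 0.19), or 1.53-fold, and it did not pass in limma (adjusted p = 0.299, unadjusted 0.0190). In the exact permutation test p was 0.1, the lowest value open to it. The difference was 0.62 in Cy5 and 0.61 in Cy3, and between 0.42 (without Fos-deficient specimen 8) and 0.75 (without Fos-deficient specimen 9) when 1 specimen was left out. On single arrays specimen 9 read 0.78 in Cy5 and 1.28 in Cy3, the lower of which was close to the highest Fos-floxed Cy5 reading of 0.72.

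Mitf, the transcription factor that drives the pigment genes and is also active in mast cells, could be compared in part. It had no value in Fos-floxed specimen 2. The specimen values were -0.36 and -0.43 for floxed papillomas 3 and 5, compared with -0.84, -0.24 and -0.95 in deficient papillomas 6, 8 and 9, with specimens 6 and 9 measured in Cy5 alone. The difference of -0.28 (SE 0.24, n = 2 and 3) did not pass in limma (adjusted p = 0.675). Mitf read differently in the dyes, and the 5 Cy5 values lay between -0.95 and -0.71 and the 3 Cy3 values between 0.07 and 0.23. In the 3 specimens with both, Cy5 read lower than Cy3 by 0.95 to 1.00, with a mean gap of -0.97, and 1.04% of 22682 probes had a gap as low. Within Cy5 the difference between the groups was 0.05 (SE 0.11), with the opposite sign. The lower specimen values of 6 and 9 thus coincided with the missing Cy3 arrays.

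Of the whole group, 0 of the 5 tested genes passed over all 22018 features at an adjusted p under 0.05, as did 0% of all features. At an unadjusted p under 0.05, 1 of the 5, Sox10, stood out as higher in the Fos-deficient papillomas, against 4.01% of all features in that direction, 8.48% in the other and 12.5% in either. Groups that did not overlap, with the Fos-deficient specimens higher, were found for 1 of the 4 genes with values in all specimens and for 9.7% of all 20456 such features. The median difference over the 5 tested genes was 0.16, against -0.002 over all features tested, and 4 of the 5 lay above 0 where 49.6% of all features did. That median was 0.06 without specimen 8 and 0.29 without specimen 9, 0.33 in Cy5 alone and, over 4 genes, 0.31 in Cy3 alone and 0.39 where both arrays had to hold a value. These members are few, and Dct and Mlana, whose measured values lay almost entirely in specimens 6 and 8, are in none of these counts.

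**Figure D3:**
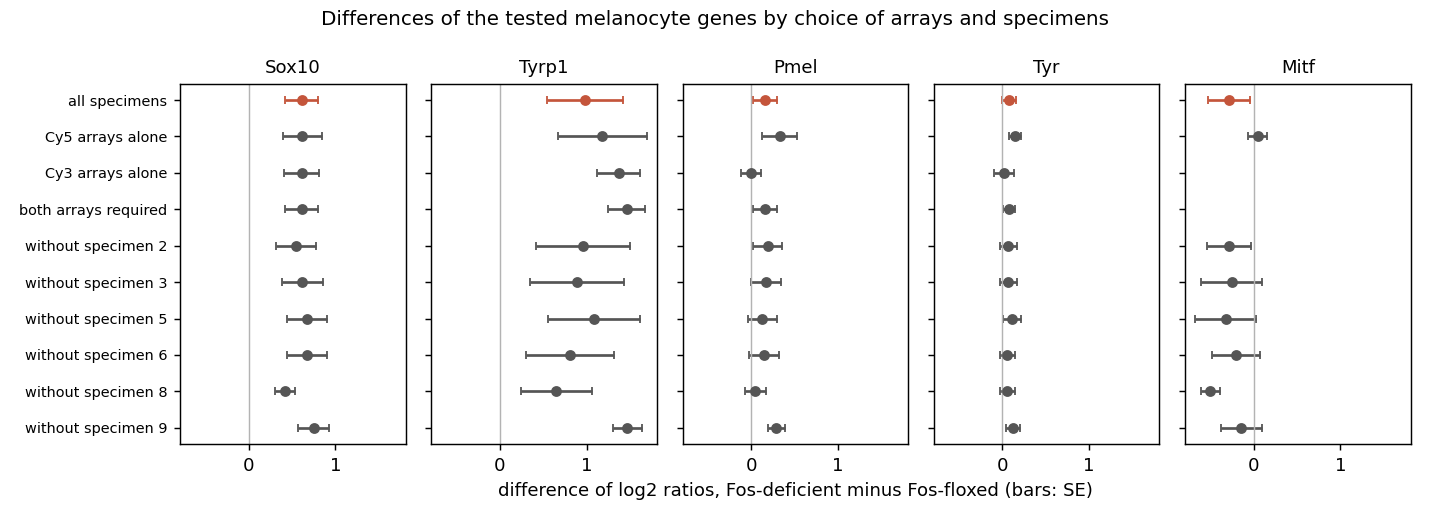
Differences of log2 ratios, Fos-deficient minus Fos-floxed (horizontal axis, bars are SE), for the 5 tested genes with all specimens, within each dye, with both arrays required and without each specimen in turn. Tyrp1 runs from 0.65 without specimen 8 to 1.47 without specimen 9, Sox10 stays between 0.42 and 0.75, and Mitf is at -0.28 with all specimens and at 0.05 in Cy5.

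The genes that surround these 7 in the pigment pathway gave no common direction. Of 62 such genes in 6 lists, 52 were tested, 28 lay above 0 and 24 below, and 0 passed over all features. Among those above 0 were genes that varied as little as Tyr over the specimens. Examples are Edn3 (0.20 to 0.37), Slc45a2 (0.17 to 0.38) and Rab27a (0.16 to 0.31). Whether their spots stood above background is not known, so the count of directions may include spots without signal. The median difference of the 52 tested genes was 0.025, and 6 (11.5%) had an unadjusted p under 0.05, near the 12.5% of all features. Of the melanocyte receptors Met, the receptor of hepatocyte growth factor, was at -1.40 (SE 0.22). Its log2 ratio was -0.39, -0.43 and -0.98 in the Fos-floxed and -1.67, -2.16 and -2.17 in the Fos-deficient specimens, and keratinocytes express it too. In the model of all 12 arrays with mice as random blocks Met passed (limma adjusted p = 0.0402), the only gene of the lists that did, where 334 of all 22018 features (1.52%) passed. Kit, the stem cell factor receptor of melanocytes and mast cells, differed by 0.13 (SE 0.33), Ednrb, the endothelin receptor of melanoblasts, by -0.37 (SE 0.17), and Mc1r, the melanocortin receptor, by 0.09 (SE 0.08). In specimens 6 and 8 Mc1r read 0.35 and 0.36, against 0.20 to 0.25 in the other 4. These values were close to those of Tyr, at 0.38 and 0.38 against 0.23 to 0.31. Whether the Mc1r spot stood above background is likewise not known. Kit read 2.27 and 2.29 in specimens 6 and 8, below the 2.56 of floxed specimen 5 and above the other 3. Ednrb and Met were not highest in specimens 6 and 8.

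Among genes of the signals that skin sends to melanocytes, Bmp4 differed by 0.52 (SE 0.18), and the other 8 tested members lay between 0.02 and 0.39. Slc7a11, the cystine transporter needed for yellow pigment, lay at -0.72 (SE 0.18), and Slc45a2, a melanosome transporter, at 0.08 (SE 0.08). Slc24a5, a cation exchanger of pigment cells, was at 0.68 (SE 0.36), with log2 ratios of -2.62, -2.08 and -3.41 in specimens 6, 8 and 9 against -3.65 to -3.04 in the Fos-floxed group. Its highest values were thus those of specimens 6 and 8. Tpcn2 and Oca2 of the same list went the other way, at -0.66 (SE 0.37) and -0.36 (SE 0.23). Both had their lowest measured value in specimen 8, at -0.47 and -0.69. Over 6 genes of the list with complete values, the mean relative to the Fos-floxed mean was -0.08 in each of specimens 6, 8 and 9. Slc24a5, Tpcn2 and Oca2 were named after their values were seen. Of 18 tested genes of melanosome biogenesis, Ap3b1, a subunit of the sorting adaptor AP-3, was at -0.33 (SE 0.08) and Gpnmb, a melanosomal glycoprotein also made by macrophages, at 0.33 (SE 0.12). Sytl2, a Rab27 effector, was at 0.82 (SE 0.20) in the list of melanosome transport. Snai2 (-0.40, SE 0.20) and Tfap2a (-0.34, SE 0.27) had the smallest p among 9 melanocyte transcription factors, and Pax3, which acts above Mitf, was at -0.06 (SE 0.17). With 1 value per mouse none of these genes passed in limma, with an adjusted p of 0.208 at the lowest, that of Met.

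Other cell types were set beside the melanocyte genes by lists of their markers. The mean of the 4 melanocyte genes with values in all specimens, relative to the Fos-floxed mean, was 0.53, 0.79 and 0.06 in deficient papillomas 6, 8 and 9, and between -0.05 and 0.08 among the floxed papillomas. The mean of the hair follicle markers had the same order. Over 16 genes it was 0.79, 1.79 and 0.24 in specimens 6, 8 and 9, and between -0.04 and 0.05 among the floxed papillomas. The order held for the 2 means and not for each gene. Tyr read 0.38 in both specimens 6 and 8, and Tchh of the follicle list read 3.52 and 2.97. Dct, outside the mean, was at 1.94 and 1.21. S100a3, a protein of the hair cuticle, had log2 ratios of 3.42, 5.87 and 2.03 in specimens 6, 8 and 9 against 0.59 to 0.72 in the Fos-floxed group. Krt36, a hair keratin, differed by 1.43 (SE 0.27). It read 2.57, 3.13 and 2.79 in specimens 6, 8 and 9 against 0.86 to 1.76 in the Fos-floxed group. For Krt36 specimen 9 thus lay above specimen 6. Of 18 tested follicle markers 16 lay above 0, with a median of 0.71, and 0 passed in limma, while 3 had an unadjusted p under 0.05, all of them higher, against 4.01% of all features in that direction and 12.5% in either. Krt34, Krt35, Krt71 and Shh were not tested. The part of the follicle genes in the melanocyte values was not tested.

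Mast cell markers, relevant because mast cells also express Kit and Mitf, were at 1.03, 0.74 and 0.27 in specimens 6, 8 and 9 and between -0.39 and 0.39 among the floxed papillomas. Cma1, a mast cell chymase, differed by 1.31 (SE 0.43) and Gata2, a transcription factor of blood and mast cells, by 1.38 (SE 0.49), and 7 of 8 tested markers lay above 0. Schwann cell markers, relevant to Sox10, were at 0.42, 0.28 and 0.14 in specimens 6, 8 and 9 and between -0.17 and 0.17 in the others. The 6 tested Schwann genes went different ways, with Cdh19, a cadherin of that lineage, at -0.39 (SE 0.16) and Egr2, a factor of myelination that other cells induce as well, at 1.52 (SE 0.59). Fibroblast markers were at 0.48, 0.40 and 0.03 in specimens 6, 8 and 9, against -0.26 to 0.22 in the Fos-floxed group. Keratinocyte markers were at -0.58, -0.77 and -0.41 in them, against -0.03 to 0.04. Macrophage markers were at 0.80 in specimen 6 and at -0.63 in specimen 8, so they did not follow the pair. Cd68, a lysosomal protein of macrophages, differed by -0.83 (SE 0.35) and Lyz2, a lysozyme, by 0.65 (SE 0.66), while Dcn and Ogn, matrix proteoglycans in the fibroblast list, differed by 1.46 (SE 0.51) and 0.67 (SE 0.16). Of the 8 tested fibroblast genes 7 lay above 0, but the collagen genes Col1a1 and Col1a2 were only at 0.04 and 0.02. Fbln1 of the same list went the other way, at -1.29 (SE 0.56). In the keratinocyte list Dsg3, of the desmosome, was at -1.23 (SE 0.14) and Col17a1, of the basal attachment, at -1.44 (SE 0.24), whereas the keratin genes Krt5, Krt14, Krt1 and Krt10 lay between -0.04 and 0.19. None of these lists had a member that passed in limma, and their part in the melanocyte values was not tested.

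**Figure D4:**
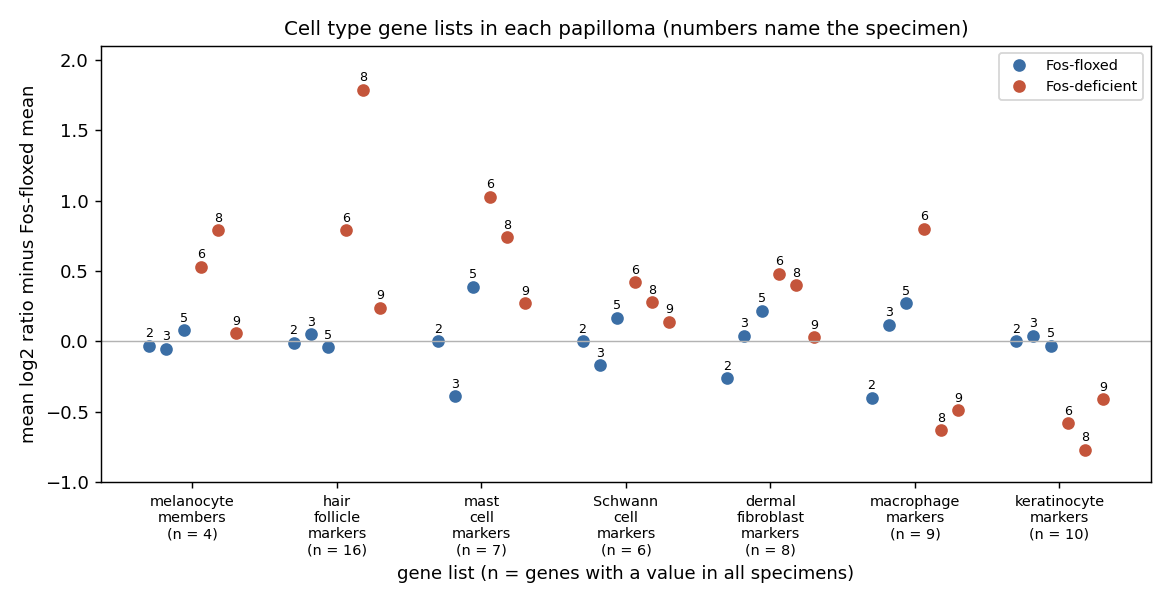
Mean log2 ratio of each gene list minus its Fos-floxed mean (vertical axis) in each specimen (points, numbered), for genes with values in all 6 specimens. The melanocyte genes and the hair follicle markers are both highest in specimen 8, then 6, with specimen 9 at 0.06 and 0.24, whereas macrophage markers are at 0.80 in specimen 6 and -0.63 in specimen 8. Mast cell, Schwann cell and fibroblast markers are also above all Fos-floxed specimens in specimens 6 and 8, with specimen 6 the higher.

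The mean course of the 4 melanocyte genes with complete values, centred over the 6 specimens, was -0.26, -0.27 and -0.15 in floxed papillomas 2, 3 and 5, compared with 0.30, 0.56 and -0.17 in deficient papillomas 6, 8 and 9. Among 6153 other named genes with complete values and an SD over specimens of at least 0.25, the closest in root mean square distance were Aasdhppt (0.041), Ift81 (0.042), Sod2 (0.046), Ssbp1 (0.048), Mrpl42 (0.055) and Rpf2 (0.057). The likeness describes these 6 specimens alone.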

How the data were processed

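Papillomas of 6 mice were measured on 12 two-colour arrays, with 37632 probes. The deposited values are log ratios, 1 per probe and array, taken here as log2; the authors' normalization, background correction and log base are not stated in the sources used here. All 66 pairs of arrays correlated positively (r from 0.705 to 0.963), dye-exchanged pairs included, so no sign was turned. The 3 mice per group limit the precision.

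Symbols came from the platform annotation and were updated through RefSeq (GRCm38.p6). Each mouse's 1 or 2 arrays with a value were averaged. Probes of a gene with values in all specimens were averaged, otherwise the fullest probe was taken. Features with values in at least 2 specimens per group, 22018 in all, were tested with limma 3.58.1 (statmod 1.5.0, R 4.3.3), two-sided, and p-values were adjusted over all features (Benjamini-Hochberg, threshold 0.05); differences are deficient minus floxed. The fit was checked on simulated data with the same noise for all genes and shifts larger than any member difference. That check does not show whether differences of the size reported here can be detected. Python 3.11.15, with pandas 2.3.3 for tables and matplotlib 3.10.9 for plots, was used elsewhere. The members and gene lists were chosen with earlier results of these data known. Named were all members, pathway genes with an unadjusted p under 0.05 or else the 2 smallest p of a list, the 2 smallest p of each marker list, and the 6 closest profiles; other genes are added for their roles. The 16 alternatives covered scaling, missing values, dyes, models and each specimen left out.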

Additional observations from a re-analysis of the deposited data

How the results depend on the processing

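Those of the 7 genes that could be tested gave 0 calls under each of the 16 alternatives. Under 13 of these, 0 features of any kind were called, so the lack of calls says little about these genes. Tyr, Tyrp1 and Sox10 kept their direction under every alternative that could be run. Pmel stayed above 0 except in Cy3 alone, where it was at 0.00 (SE 0.12) and had no direction. Mitf changed sign, to 0.05, in Cy5 alone (limma adjusted p = 0.853) and in a model of all 12 arrays with the dye as a term and mice as random blocks (0.05, limma adjusted p = 0.873), and its limma adjusted p lay between 0.312 and 0.919 over the 12 alternatives run for it. Its specimen values mix 1 and 2 dyes. The median over the tested members moved from 0.16 to 0.39 where both arrays or all 6 specimens had to hold a value, since Mitf then dropped out, and lay between 0.06 and 0.29 with 1 specimen left out. The block model called 334 features and 1 list gene, Met; it takes arrays of a specimen partly as replicates. In Cy3 alone 1 feature was called, and leaving out 1 specimen gave 0 to 1. At an unadjusted p under 0.05 the limma fit found 2751. Mitf could not be fitted in Cy3 alone, nor Tyrp1 on probes with values on all arrays. Where a specimen left out leaves 1 Fos-floxed value for Mitf, that value is assumed to vary like the others. No paired analysis was possible because the groups share no replicate numbers. Spot brightness over background was not analysed here, which limits what Tyr, Pmel and the empty cells can show.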
